A study of Homo sapiens with 30 samples.

Results

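The 10 genes described here have been reported as direct targets of miR-1 in studies of muscle, heart and tumors, and the rule that lists them uses no value of these libraries. They are HDAC4, CDK9, PTMA, TWF1, LASP1, CORO1C, TAGLN2, CLTC, PNP and YWHAZ, 10 of the 57175 genes that both count tables hold, and all 10 passed the filter on low counts in both tables. Their RNA was counted in 10 groups of 3 libraries, all from lines of human acute myeloid leukemia (AML). The overexpression series has MV4-11 and Molm-14 with a GFP-marked lentivirus for the human miR-1 hairpin (OE) or with the empty vector (EV). The knockout series has the same lines and THP-1 with a lentiviral CRISPR/Cas9 construct with 1 guide against MPC1, a subunit of the mitochondrial pyruvate carrier (KO), or with its empty vector (EV). MV4-11 and Molm-14 have the FLT3 internal tandem duplication. The labels do not say whether the 3 libraries of a group were separate transductions, clones or cultures, so the p-values measure the spread between these libraries, which may be technical.

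MicroRNAs are short RNAs that guide Argonaute proteins to messenger RNAs, mostly through base pairing between the seed of the microRNA and the 3′ UTR of the transcript, which lowers translation and stability of the target. miR-1 is best known from heart and skeletal muscle, where it rises as cells differentiate and holds down genes of proliferation and of the non-muscle cytoskeleton. Its mature form is cut from hairpins of the MIR1-1 and MIR1-2 loci, and miR-206 and miR-613 carry the same seed. Because RNA-seq reads the amount of transcript, loss of translation without loss of the transcript would not be seen in these libraries.

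The sequences that tie the 10 genes to miR-1 are given first. The mature miRNAs (RefSeq, GRCh38.p14) are printed with the seed, bases 2 to 8, in capitals.
hsa-miR-1-3p: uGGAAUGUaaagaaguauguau
hsa-miR-206: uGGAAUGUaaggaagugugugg
hsa-miR-613: aGGAAUGUuccuucuuugcc
All 3 hold the seed GGAAUGU. Counted position by position from the 5′ end, miR-206 has the base of miR-1 at 18 of its 22 positions and miR-613 at 8 of its 20, the seed included.

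The 3′ UTR of the canonical GENCODE transcript of each gene was searched, on the transcript strand, for matches to that seed. The kinds were an 8mer (ACATTCCA), a 7mer-m8 (ACATTCC not followed by A), and a 7mer-A1 (CATTCCA not preceded by A). At least 1 match was found in 10 of 10 genes, a 7mer-m8 or 8mer in 9 of 10 and an 8mer in 5 of 10 (TWF1, LASP1, CORO1C, CLTC and YWHAZ). Among the 12494 tested genes of the overexpression series with a 3′ UTR, these shares were 21.9%, 13.1% and 5.33%. The 3′ UTRs of the 10 genes were longer, with a median of 2078 bases beside 1293, and the shares were not adjusted for length. Published targets were in part found through such matches, so the high share is not independent of how the genes were chosen. Sites of 9 of the 10 genes are printed on the GRCh38 transcript strand, with the match in capitals, up to 2 a gene and of 1 kind a gene. They allow the kind of match to be set beside each gene's values. Further 7mer-A1 matches of HDAC4 (bases 2334 and 3547), TWF1 (base 70), TAGLN2 (base 349) and CLTC (base 705) are not printed.
CORO1C 8mer, chr12:108647285-108647312, minus strand, base 111 of the 3′ UTR: ggaggcactgccatttggagACATTCCA
CORO1C 8mer, chr12:108647249-108647276, minus strand, base 147 of the 3′ UTR: ttgtcaaccagcgataggccACATTCCA
LASP1 8mer, chr17:38918787-38918814, plus strand, base 29 of the 3′ UTR: cgcccccatctgtcttcagcACATTCCA
LASP1 8mer, chr17:38919111-38919138, plus strand, base 353 of the 3′ UTR: ccagctcctcacatacccacACATTCCA
TWF1 8mer, chr12:43793965-43793992, minus strand, base 1613 of the 3′ UTR: cactacattaaagtaaatggACATTCCA
CLTC 8mer, chr17:59694007-59694034, plus strand, base 175 of the 3′ UTR: ctatgttaaaaccttatttcACATTCCA
TAGLN2 7mer-m8, chr1:159918722-159918748, minus strand, base 72 of the 3′ UTR: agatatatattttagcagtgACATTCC
TAGLN2 7mer-m8, chr1:159918608-159918634, minus strand, base 186 of the 3′ UTR: tctcccccatgcttactaatACATTCC
HDAC4 7mer-m8, chr2:239049577-239049603, minus strand, base 3514 of the 3′ UTR: tgtttttctttttgatcagaACATTCC
CDK9 7mer-m8, chr9:127790008-127790034, plus strand, base 485 of the 3′ UTR: tttggttccattgtttggagACATTCC
PNP 7mer-m8, chr14:20476946-20476972, plus strand, base 365 of the 3′ UTR: tactagctctttgagataatACATTCC
PTMA 7mer-A1, chr2:231713307-231713333, plus strand, base 476 of the 3′ UTR: aaaaacaatcttattccgagCATTCCA
The 2 matches of CORO1C lie close together near the stop codon, and LASP1 has a further 7mer-m8 at base 408, and these are the genes with more than 1 8mer. PTMA held a single 7mer-A1 and no other match. A match is a description of letters and does not show that the site is used in these cells.

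**Figure D1:**
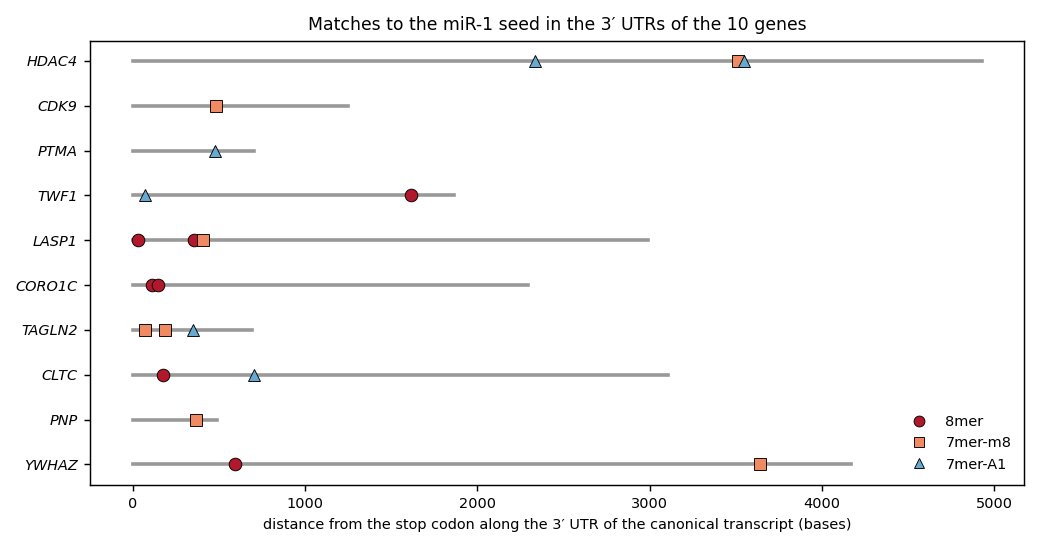
Position of each match to the miR-1 seed along the 3′ UTR of the 10 genes. The x axis is the distance in bases from the stop codon, grey lines show the length of each 3′ UTR, circles are 8mers, squares 7mer-m8 and triangles 7mer-A1 matches; 5 of the 10 genes hold an 8mer, and the longest 3′ UTR is that of HDAC4 with 4929 bases.

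Each library of the overexpression series held 15543301 to 20939985 counts and each of the knockout series 5339360 to 9106478, so depth was greater in the first. MIR133A1HG, the transcript that contains MIR1-2, had 34 to 73 counts in the 6 OE libraries and 0 in the 6 EV libraries (edgeR FDR 8.59e-06 in MV4-11 and 1.10e-04 in Molm-14), while MIR1-1 and MIR1-2 themselves were at 0. The level of mature miR-1 was not analysed here. MPC1 was lower in each KO group than in its EV group (log2 fold changes -1.18 in MV4-11, -1.04 in Molm-14 and -0.84 in THP-1, edgeR FDR 1.33e-08, 3.41e-08 and 6.32e-06). The 10 myeloid markers used to check the labels had a mean above 1 CPM in every MV4-11 and Molm-14 group and 9 of 10 in THP-1, where MEIS1, a homeobox cofactor, was below 1 CPM in both groups, whereas the 10 muscle markers summed to at most 1.35 CPM in any MV4-11 or Molm-14 library and to 5.03 to 8.52 CPM in THP-1. MV4-11 OE replicate 1 and MV4-11 EV replicate 3 of the overexpression series stood apart, with a mean log2 CPM over 20 interferon-stimulated genes of 5.07 and 3.15 where the other 4 MV4-11 libraries had 1.42 to 1.59. Results of that line are therefore also given without them.

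All 10 genes were expressed in every group, from a mean of 18.8 CPM for TWF1 in THP-1 KO to 1914 CPM for PTMA in Molm-14 OE, where CPM are counts scaled to a common library size with TMM factors. Levels between genes were compared per length, as CPM divided by exon length in kilobases (RPKM), in the EV groups. PTMA, or prothymosin alpha, a small acidic nuclear protein of dividing cells, was the highest in all 5 EV groups, at 467 ± 22.5 RPKM in MV4-11 and 504 ± 35.1 in Molm-14 of the overexpression series (mean ± SD, n = 3). TAGLN2 followed in all 5, at 164 ± 9.41 and 144 ± 2.19 RPKM. HDAC4 was the lowest in all 5 groups, at 6.38 ± 0.102 and 6.31 ± 0.141 RPKM in the overexpression series and at 2.76 ± 0.480, 2.00 ± 0.450 and 3.64 ± 0.854 in MV4-11, Molm-14 and THP-1 of the knockout series. With the length of the canonical transcript PTMA stayed first and HDAC4 last in the 5 EV groups, whereas TAGLN2 was at rank 3 behind PNP in MV4-11 EV of the knockout series and at rank 2 in the other 4.

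The middle of the order was less firm on the exon-length scale. In MV4-11 EV of the knockout series, CDK9 (15.5 ± 0.436 RPKM), LASP1 (14.3 ± 0.187) and CORO1C (14.3 ± 2.11) stood within the SD of CORO1C. In Molm-14 EV of that series TWF1 (9.74 ± 0.192) and CDK9 (9.66 ± 0.320) could not be ordered either, nor could PNP (36.6 ± 3.28), CORO1C (35.0 ± 1.67) and YWHAZ (32.8 ± 0.676) in THP-1. With the canonical length PNP stood at rank 3 in THP-1 EV, above CLTC at rank 4, and CORO1C and YWHAZ at ranks 5 and 6. The series were counted on different gene annotations and sequenced to different depths, so no level was compared between them.

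To ask whether known targets fell when miR-1 was added, OE was compared with EV in MV4-11. None of the 10 genes passed a 5% false discovery rate (FDR) over all 17542 tested genes with edgeR, DESeq2 or limma-voom, where 0.177% of all tested genes passed with edgeR. With edgeR 2 of the 10 had an unadjusted p under 0.05, 1 lower (CORO1C) and 1 higher (PNP), as did 5.9% of all genes. There were 5 genes with a lower and 5 with a higher mean estimate, and the median log2 fold change was 0.012 beside 0.0069 over all tested genes. The 95% intervals of the 10 changes stayed between -15.6% (PTMA) and 22.5% (PNP).

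Gene positions are those of GENCODE release 44 on GRCh38. Of the actin-binding members, CORO1C (ENSG00000110880, chromosome 12, 108645109 to 108731526, minus strand), a coronin that binds actin filaments and has a pair of 8mers, stood at 86.6, 89.9 and 79.4 CPM in the 3 MV4-11 OE libraries and at 94.2, 91.5 and 93.3 CPM in EV. All 3 OE libraries were below all 3 EV libraries. The estimate did not pass (log2 fold change -0.12, SE 0.0520, FDR 0.748 in edgeR, unadjusted p 0.0267), and its 95% interval, not adjusted for the number of genes, ran from -14.9% to -1.10%. LASP1 (ENSG00000002834, chromosome 17, 38869859 to 38921770, plus strand), a LIM and SH3 protein of focal adhesions, stood at 202, 218 and 189.9 CPM in OE, all within the EV range of 201, 175 and 221 CPM (log2 fold change 0.033, SE 0.0679, FDR 1 in edgeR). TWF1 (ENSG00000151239, chromosome 12, 43793723 to 43806328, minus strand), or twinfilin, binds actin monomers. It stood at 30.5, 34.5 and 34.4 CPM in OE and 32.5, 32.5 and 31.9 CPM in EV (log2 fold change 0.039, SE 0.0711, FDR 1 in edgeR). TAGLN2 (ENSG00000158710, chromosome 1, 159918107 to 159925507, minus strand), an actin-binding protein of the transgelin family, stood at 379 ± 20.9 CPM in OE and 370.2 ± 21.3 CPM in EV (mean ± SD, n = 3, log2 fold change 0.036, SE 0.0503, FDR 1 in edgeR). The groups overlapped for LASP1, TWF1 and TAGLN2.

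The nuclear members overlapped as well. HDAC4 (ENSG00000068024, chromosome 2, 239048168 to 239401654, minus strand), a class IIa histone deacetylase that holds back MEF2 factors and the muscle program, stood at 89.9, 96.4 and 96.6 CPM in MV4-11 OE and 91.7, 90.7 and 88.8 CPM in EV (log2 fold change 0.061, SE 0.0494, FDR 1 in edgeR). CDK9 (ENSG00000136807, chromosome 9, 127785679 to 127790792, plus strand), the kinase that releases paused RNA polymerase II, stood at 54.6 ± 0.996 CPM and 57.6 ± 4.55 CPM (log2 fold change -0.077, SE 0.0671, FDR 1 in edgeR). PTMA (ENSG00000187514, chromosome 2, 231706895 to 231713551, plus strand) stood at 1289.9, 1800.3 and 1569 CPM in OE and 1633, 1614 and 1493 CPM in EV (log2 fold change -0.025, SE 0.0992, FDR 1 in edgeR). Its lowest OE value came from replicate 1, the library with the highest interferon-stimulated expression, and without that library and EV replicate 3 the estimate was 0.057 (edgeR FDR 0.882). PTMA has 12 annotated pseudogenes that could share its reads, and their counts came to 1.33% of its own in the overexpression table and 2.75% in the knockout table.

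PNP (ENSG00000198805, chromosome 14, 20461992 to 20477094, plus strand), the purine nucleoside phosphorylase of purine salvage, was the member whose OE libraries all lay above EV, at 139, 153 and 141 CPM in OE and 137, 119.6 and 129 CPM in EV. The estimate did not pass (log2 fold change 0.17, SE 0.0598, FDR 0.547 in edgeR, unadjusted p 0.0113). CLTC (ENSG00000141367, chromosome 17, 59619684 to 59696956, plus strand), the clathrin heavy chain of endocytic coats, stood at 581 ± 11.7 CPM and 595 ± 13.3 CPM (log2 fold change -0.035, SE 0.0418, FDR 1 in edgeR). YWHAZ (ENSG00000164924, chromosome 8, 100916523 to 100953388, minus strand), a 14-3-3 adaptor that binds phosphorylated proteins, stood at 749.9 ± 26.5 CPM and 755 ± 24.2 CPM (log2 fold change -0.010, SE 0.0433, FDR 1 in edgeR). In all, 1 of 10 genes separated the groups downward and 1 upward, where 4.11% and 5.06% of all tested genes did so and 9.17% separated them in either direction. Without the pair of libraries that stood apart, 0 of 10 passed in edgeR, with 2 of 10 at an unadjusted p under 0.05. The share of all tested genes with such a p was not counted in that fit, and was 5.9% with all 12 libraries. Over the alternative settings, that fit among them, 9 to 123 genes passed. Without the pair 6 estimates were higher and 4 lower, and the median was 0.066. CORO1C and PNP then had log2 fold changes of -0.13 (edgeR FDR 0.484) and 0.20 (edgeR FDR 0.199).

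**Figure D2:**
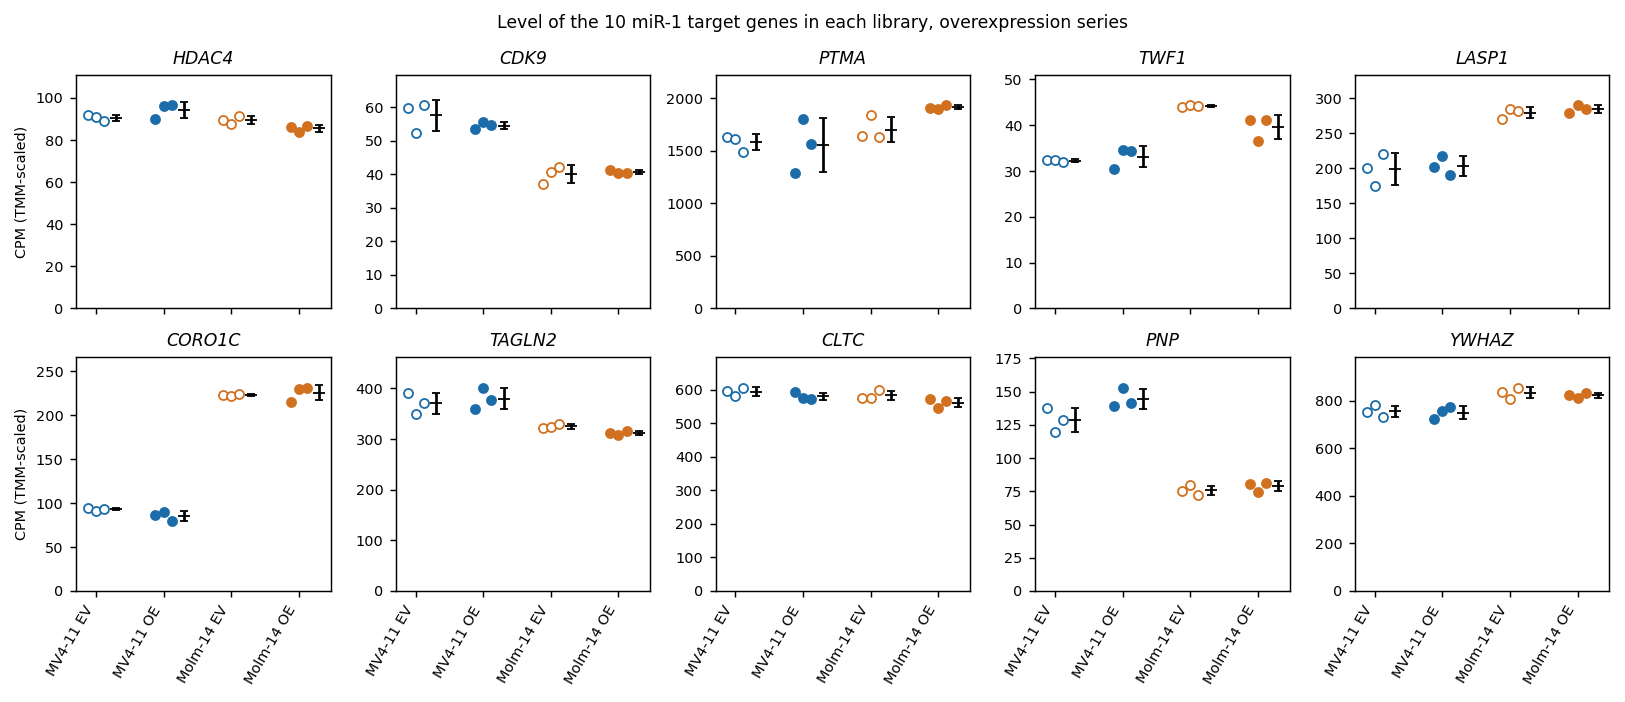
Level of each gene in the 12 libraries of the overexpression series. The y axis is CPM on TMM-scaled library sizes and starts at 0, open circles are EV and filled circles OE libraries, blue is MV4-11 and orange Molm-14, and the black bar is the mean with its SD (n = 3); PTMA spreads most in MV4-11 OE, at 1553 ± 256 CPM, and CORO1C stands at 93.0 ± 1.38 CPM in MV4-11 EV and 223 ± 0.625 CPM in Molm-14 EV.

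In Molm-14, OE was compared with EV in the same way. In models of all 12 libraries, none of the 10 genes passed with edgeR, DESeq2 or limma-voom. There 0.0057% of the 17542 tested genes, a single gene, passed with edgeR. Chi-square per degree of freedom between replicates was 5.09 to 15.8 in MV4-11 and 2.09 to 3.05 in Molm-14 of this series. With the MV4-11 libraries in each model, agreement of the tools does not show that the result holds on the spread of Molm-14 alone. With the Molm-14 libraries alone PTMA passed, as given below. In the edgeR model of 12 libraries 1 of the 10 had an unadjusted p under 0.05 (TWF1), as did 4.38% of all genes. Again 5 estimates were lower and 5 higher, and the median log2 fold change was -0.0021 beside 0 over all genes. All OE libraries were below all EV libraries for 4 of 10 genes (HDAC4, TWF1, TAGLN2 and CLTC) and above for 1 (PTMA), where 7.07% and 7.8% of all tested genes separated so (14.9% in either direction). Replicates of Molm-14 lay close together, and the differences of these 5 genes ran from -10.4% to 12.4%. The 95% intervals of the 10 changes stayed between -19.0% (TWF1) and 30.9% (PTMA).

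TWF1, which holds 1 8mer, stood at 41.1, 36.5 and 41.1 CPM in Molm-14 OE and at 43.99, 44.4 and 44.2 CPM in EV. All OE libraries were lower, and this was the largest downward estimate of the 10 in that line (log2 fold change -0.16, SE 0.0698, FDR 1 in edgeR, unadjusted p 0.0354). TAGLN2 stood at 313, 308 and 315 CPM in OE and 321, 324 and 331 CPM in EV (log2 fold change -0.060, SE 0.0505, FDR 1 in edgeR). HDAC4 stood at 86.3, 83.8 and 86.4 CPM and 89.4, 87.5 and 91.5 CPM (log2 fold change -0.065, SE 0.0498, FDR 1 in edgeR). CLTC stood at 572, 547 and 567 CPM and 577, 577 and 600.0 CPM (log2 fold change -0.056, SE 0.0418, FDR 1 in edgeR). For these last 3 genes the gap between the groups was a few percent of the level.

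PTMA had the largest upward estimate in Molm-14, at 1908, 1898 and 1936 CPM in OE and 1637, 1839.6 and 1632 CPM in EV, with no overlap. It did not pass in the model of all 12 libraries (log2 fold change 0.17, SE 0.0992, FDR 1 in edgeR). It passed in a fit of the 6 Molm-14 libraries, at 0.17 on the log2 scale (edgeR FDR 0.0435), where 195 genes passed in place of 1. The other 5 genes overlapped. CORO1C stood at 215, 229 and 232 CPM and 223, 222 and 224 CPM (log2 fold change 0.015, SE 0.0499, FDR 1 in edgeR), with OE libraries on both sides of EV. LASP1, CDK9, PNP and YWHAZ had log2 fold changes of 0.030, 0.023, 0.057 and -0.020 (edgeR FDR 1 for LASP1).

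The values were then set beside the seed matches. The 5 genes with an 8mer had median changes of -0.010 in MV4-11 OE and -0.020 in Molm-14 OE on the log2 scale, with 3 lower and 2 higher in each line. The 5 genes without one had medians of 0.036 and 0.023, with 2 lower and 3 higher in each. Split the same way, THP-1 KO had a median of -0.098 for genes with an 8mer beside 0.119 for those without. Molm-14 KO gave -0.069 beside 0.119. The order was reversed in MV4-11 KO, at -0.092 beside -0.116. All these medians are a description, and no difference between them was tested. Over both lines of the OE comparisons, LASP1 and PNP had a higher estimate in each, YWHAZ and CLTC a lower one, and the other 6 had both signs. LASP1 and YWHAZ turned sign in MV4-11 when single libraries were left out. The share of all tested genes with the same sign in both lines was not counted.

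The difference of the OE effect between the lines was tested in the same model. For 0 of 10 genes did it pass with edgeR, DESeq2 or limma-voom, with 0 of 10 at an unadjusted p under 0.05 in edgeR, where 0.0456% of all genes passed and 5.3% had such a p. The smallest p was that of TWF1 (log2 difference of MV4-11 minus Molm-14 0.20, SE 0.0996, unadjusted edgeR p 0.0627, FDR 0.965). The other log2 differences were 0.13 (HDAC4), -0.10 (CDK9), -0.19 (PTMA), 0.0036 (LASP1), -0.14 (CORO1C), 0.095 (TAGLN2), 0.11 (PNP), 0.0094 (YWHAZ) and 0.021 (CLTC), and the 95% intervals of the 10 stayed between -29.5% and 32.4%.

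**Figure D3:**
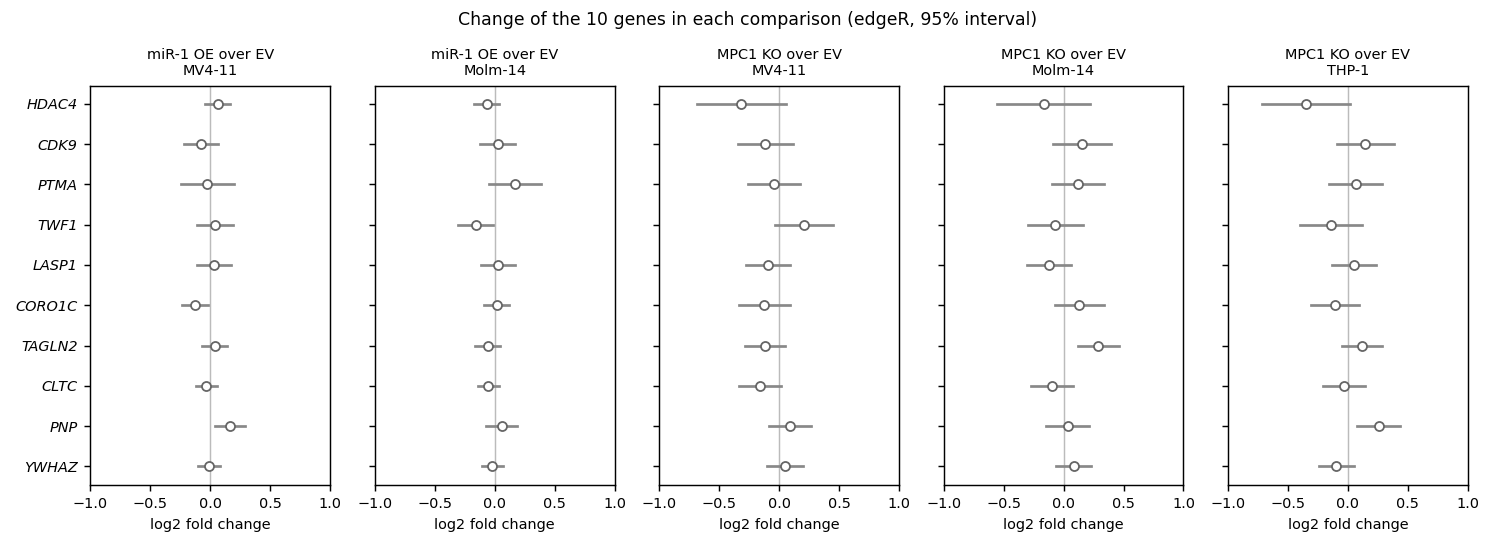
Log2 fold change of each gene over EV in the 5 comparisons. The x axis is the edgeR estimate, each line is its 95% interval, and an open point marks a gene that did not pass a 5% FDR, which holds for all 10 genes in all 5 comparisons; the point farthest above 0 is TAGLN2 in Molm-14 KO at 0.29.

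The study used MPC1 deletion to ask how pyruvate use by mitochondria bears on microRNAs, miR-1 among them, so the same 10 genes were followed in the KO groups. In MV4-11 KO, 0 of 10 passed with edgeR, DESeq2 or limma-voom, and 0 had an unadjusted p under 0.05 in edgeR, where 5.41% of the 14490 tested genes passed and 22.3% had such a p. There were 7 lower and 3 higher estimates with a median log2 fold change of -0.10, beside 0.015 over all genes, of which 46.2% were lower. The 95% intervals stayed between -37.8% (HDAC4) and 36.9% (TWF1). Standard errors ran from 0.0716 (YWHAZ) to 0.177 (HDAC4), against 0.0418 to 0.0992 in MV4-11 OE.

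In MV4-11 KO the largest downward estimate was that of HDAC4, at 27.0, 31.3 and 35.2 CPM in the KO libraries and 31.6, 40.8 and 44.9 CPM in EV, and the groups overlapped (log2 fold change -0.32, SE 0.177, FDR 0.302 in edgeR). CLTC stood at 773, 678 and 809 CPM and 751, 908 and 874 CPM, also with overlap (log2 fold change -0.16, SE 0.0855, FDR 0.261 in edgeR, unadjusted p 0.0667, the smallest of the 10). For HDAC4 and CLTC the overlap came from EV replicate 1. That library differed more from EV replicates 2 and 3 (chi-square per degree of freedom 11.8 and 6.96) than those from each other (2.48). With 1 library left out, neither gene passed (lowest edgeR FDR 0.119 for HDAC4 and 0.0798 for CLTC). TWF1 was higher in all 3 KO libraries, at 30.4, 24.3 and 25.9 CPM against 22.6, 24.1 and 22.8 CPM in EV, with the lowest KO and the highest EV value close to each other (log2 fold change 0.21, SE 0.118, FDR 0.295 in edgeR). LASP1 was lower in all 3, at 90.0, 96.6 and 98.0 CPM against 101.9, 99.6 and 101.9 CPM (log2 fold change -0.092, SE 0.0890, FDR 0.578 in edgeR). TWF1 and LASP1 were the 2 of 10 genes that separated the groups, 1 upward and 1 downward, where 15% and 9.1% of all tested genes did so (24.1% in either direction). The other 6 genes overlapped, with log2 fold changes of -0.12 (CDK9), -0.040 (PTMA), -0.12 (CORO1C), -0.12 (TAGLN2), 0.089 (PNP) and 0.049 (YWHAZ).

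In Molm-14 KO, 0 of 10 passed with edgeR, where 2.4% of the 14490 genes passed, and 1 had an unadjusted p under 0.05 (10.7% of all genes). With DESeq2 1 passed and with limma-voom 0. That gene was TAGLN2, at 216, 238 and 225 CPM in the KO libraries and 197, 182 and 177 CPM in EV. All 3 KO libraries were above all 3 EV libraries, by 22.3% in the model with a 95% interval of 8.73% to 37.5% (log2 fold change 0.29, SE 0.0823, FDR 0.0615 in edgeR, unadjusted p 0.00158). The FDR was close to the threshold, and TAGLN2 passed under RLE scaling (FDR 0.0450), upper-quartile scaling (0.0401), without a filter on low counts (0.0306), with DESeq2 (0.0222) and with the 6 Molm-14 libraries alone (0.0297). It did not pass under total-count scaling, with genes of at least 100 mean counts, with limma-voom or with replicate numbers as a block (FDR up to 0.0894), nor without any 1 of the 6 libraries (FDR 0.0605 to 0.326). Myeloid markers differed between the same groups, with MPO, myeloperoxidase of granules, at -1.11, SE 0.1005, FDR 3.41e-08 in edgeR and LYZ, lysozyme, at 0.96, SE 0.104, FDR 8.32e-07 in edgeR on the log2 scale, 2 of the 10 markers passing (2.4% of all genes), and their part in the value of TAGLN2 was not tested.

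YWHAZ was the other gene that separated the Molm-14 groups, at 277, 293 and 276 CPM in the KO libraries and 256, 275 and 267 CPM in EV (log2 fold change 0.084, SE 0.0716, FDR 0.773 in edgeR), so that 2 of 10 did so upward and 0 downward, where 8.39% and 8% of all tested genes did (16.4% in either direction). Of the 10 estimates 6 were higher and 4 lower, with a median of 0.058 beside 0 over all genes. HDAC4 stood at 25.5, 23.4 and 27.7 CPM and 25.6, 35.7 and 23.9 CPM (log2 fold change -0.17, SE 0.186, FDR 0.854 in edgeR), and the estimate without EV replicate 2 was 0.047. CORO1C stood at 256 ± 28.8 CPM in the KO libraries and 233 ± 18.8 CPM in EV (log2 fold change 0.13, SE 0.0982, FDR 0.736 in edgeR), and LASP1 at 110.4 ± 7.53 CPM and 120.1 ± 9.99 CPM (log2 fold change -0.12, SE 0.0885, FDR 0.728 in edgeR). The remaining 5 had log2 fold changes of 0.15 (CDK9), 0.12 (PTMA), -0.069 (TWF1), 0.033 (PNP) and -0.099 (CLTC), and their groups overlapped. The 95% intervals in Molm-14 KO stayed between -31.9% (HDAC4) and 37.5% (TAGLN2).

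In THP-1 KO, 0 of 10 passed with edgeR, DESeq2 or limma-voom, where 0.0897% of all tested genes passed with edgeR, and 1 of 10 had an unadjusted p under 0.05 (8.01% of all genes). That gene was PNP, at 255, 265 and 247 CPM in the KO libraries and 229, 221 and 192 CPM in EV, all KO libraries above all EV libraries (log2 fold change 0.26, SE 0.0862, FDR 0.432 in edgeR, unadjusted p 0.00642). YWHAZ was lower in all 3 KO libraries, at 267, 271 and 249 CPM against 276, 279 and 287 CPM (log2 fold change -0.098, SE 0.0718, FDR 0.765 in edgeR). These 2 of 10 genes separated the groups, 1 upward and 1 downward, where 6.8% and 6.79% of all tested genes did so (13.6% in either direction). HDAC4 had the largest downward estimate, at 33.9, 39.6 and 47.2 CPM in the KO libraries and 42.7, 46.8 and 65.4 CPM in EV. Its groups overlapped (log2 fold change -0.35, SE 0.174, FDR 0.637 in edgeR). CORO1C stood at 215, 222 and 192 CPM and 231, 233 and 214 CPM (-0.11, SE 0.0991, FDR 0.805 in edgeR) and TAGLN2 at 266, 251 and 272 CPM and 254, 235 and 237 CPM (0.12, SE 0.0818, FDR 0.733 in edgeR), also with overlap. The remaining 5 overlapped as well, with log2 fold changes of 0.15 (CDK9), 0.063 (PTMA), -0.14 (TWF1), 0.051 (LASP1) and -0.033 (CLTC). In THP-1 the replicate numbers were taken as pairs, from the data and not from the labels. In all 3 pairs the KO library was higher for PNP and TAGLN2 and lower for HDAC4, CORO1C and YWHAZ. The share of all tested genes with the same direction in all 3 pairs was not counted. With the pairs as a block the edgeR FDR was 0.231 (PNP), 0.644 (TAGLN2), 0.334 (HDAC4), 0.599 (CORO1C) and 0.632 (YWHAZ). There were 5 higher and 5 lower estimates, with a median of 0.0091 beside 0.0034 over all genes, and the 95% intervals stayed between -39.1% (HDAC4) and 35.0% (PNP).

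**Figure D4:**
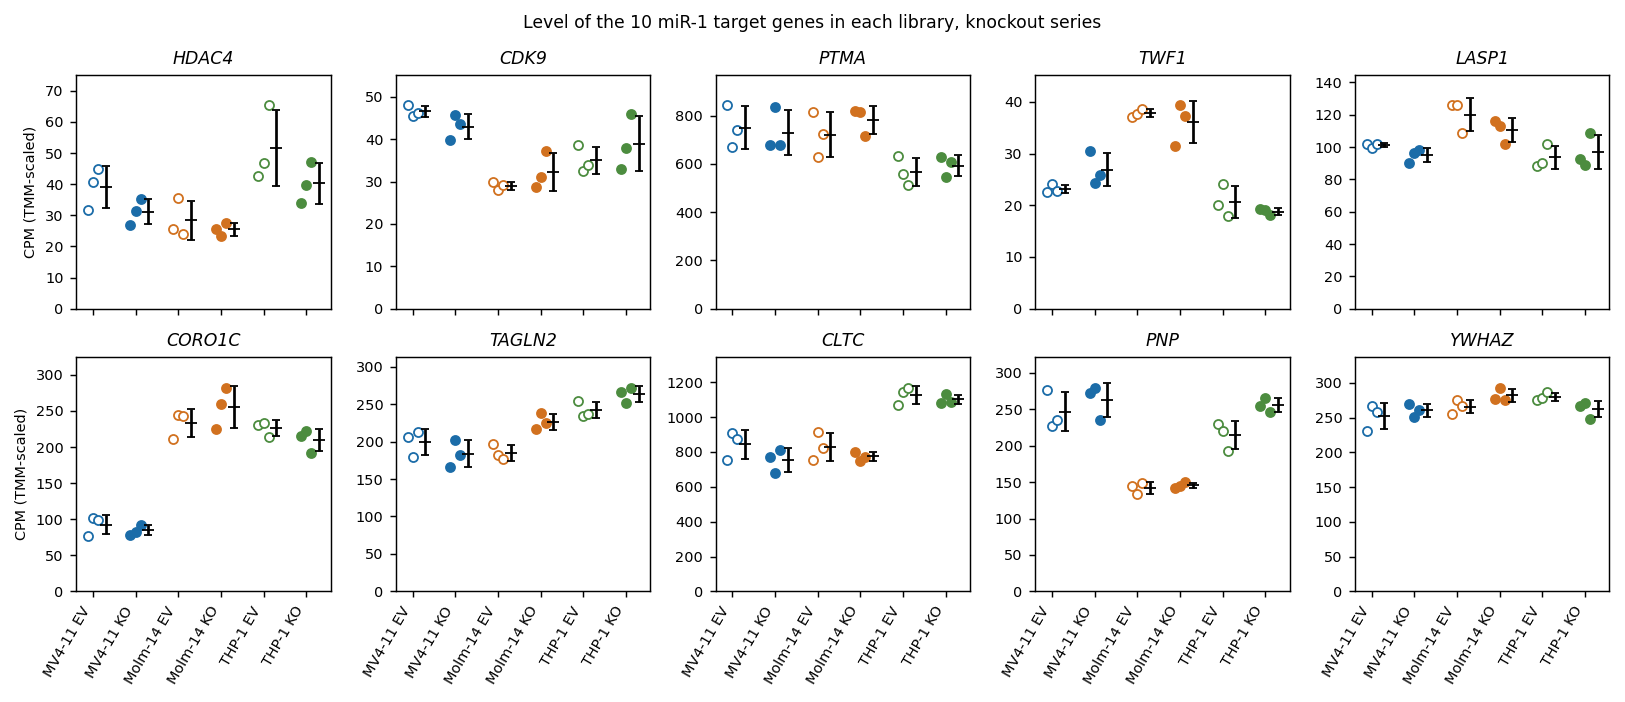
Level of each gene in the 18 libraries of the knockout series. The y axis is CPM on TMM-scaled library sizes and starts at 0, open circles are EV and filled circles KO libraries, blue is MV4-11, orange Molm-14 and green THP-1, and the black bar is the mean with its SD (n = 3); TAGLN2 in Molm-14 KO, at 226 ± 10.8 CPM, and PNP in THP-1 KO, at 256 ± 9.22 CPM, have all KO points above EV.

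Set side by side over the 3 knockout lines, HDAC4 (-0.32, -0.17 and -0.35 in MV4-11, Molm-14 and THP-1) and CLTC (-0.16, -0.099 and -0.033) had lower log2 estimates in each line and PNP (0.089, 0.033 and 0.26) a higher one. The other 7 genes had both signs. Without Molm-14 EV replicate 2 the estimates in that line were 0.047 for HDAC4 and -0.015 for PNP. The share of all tested genes with the same sign in all 3 lines was not counted. The difference of the KO effect between lines passed for 0 of 10 genes with edgeR in each of the 3 pairs, where 1.48% (MV4-11 minus Molm-14), 0.193% (MV4-11 minus THP-1) and 0.766% (Molm-14 minus THP-1) of all tested genes passed. In those pairs 1, 0 and 0 of the 10 genes had an unadjusted p under 0.05 (14.2%, 9.05% and 7.8% of all genes), DESeq2 passed 1, 0 and 0, and limma-voom passed 0 in each. The nearest was TAGLN2, with a log2 difference of MV4-11 minus Molm-14 of -0.41, SE 0.116, FDR 0.0793 in edgeR. That difference passed under upper-quartile scaling (FDR 0.0488), without a filter (0.0436), with genes of at least 100 mean counts (0.0444), with DESeq2 (0.0205), and without MV4-11 EV replicate 2 (0.0381) or KO replicate 2 (0.0409). It did not pass under the other settings (FDR up to 0.0749) or without any other 1 of the 12 libraries (up to 0.254).

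The other log2 differences of MV4-11 minus Molm-14 were -0.15 (HDAC4), -0.27 (CDK9), -0.16 (PTMA), 0.28 (TWF1), 0.029 (LASP1), -0.26 (CORO1C), 0.056 (PNP), -0.035 (YWHAZ) and -0.064 (CLTC). Those of MV4-11 minus THP-1 were 0.035 (HDAC4), -0.26 (CDK9), -0.10 (PTMA), 0.35 (TWF1), -0.14 (LASP1), -0.016 (CORO1C), -0.24 (TAGLN2), -0.17 (PNP), 0.15 (YWHAZ) and -0.13 (CLTC). Those of Molm-14 minus THP-1 were 0.19 (HDAC4), 0.0087 (CDK9), 0.056 (PTMA), 0.074 (TWF1), -0.17 (LASP1), 0.24 (CORO1C), 0.17 (TAGLN2), -0.22 (PNP), 0.18 (YWHAZ) and -0.066 (CLTC). TWF1 had the largest upward difference in the first 2 pairs and CORO1C in the third. The 95% intervals stayed between -37.9% (HDAC4) and 53.0% (TWF1), between -33.7% (CDK9) and 63.6% (TWF1), and between -28.1% (PNP) and 64.7% (HDAC4).

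The EV groups were then compared between lines, to describe how far the 10 genes differ at baseline. In bulk RNA, fewer cells of a type and less RNA per cell cannot be told apart, and the 3 comparisons of the knockout series share EV libraries. In the overexpression series, 7 of 10 genes differed between MV4-11 EV and Molm-14 EV at a 5% FDR in edgeR, where 64.8% of all tested genes did. In the knockout series 6 of 10 did so between the same lines (61.7% of all genes), 7 of 10 between THP-1 and MV4-11 (67.5%) and 8 of 10 between THP-1 and Molm-14 (69.6%). These shares of the 10 genes were near those of all genes.

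CORO1C was the gene with the largest baseline difference. Its EV libraries stood at 94.2, 91.5 and 93.3 CPM in MV4-11 and 223, 222 and 224 CPM in Molm-14 of the overexpression series (log2 fold change -1.26, SE 0.0515, FDR 2.60e-14 in edgeR). In the knockout series they stood at 77.0, 102.3 and 98.2 CPM in MV4-11, 212, 245 and 244 CPM in Molm-14 and 231, 233 and 214 CPM in THP-1. MV4-11 was below both other lines with no overlap (log2 fold change over Molm-14 -1.34, SE 0.102, FDR 6.75e-12 in edgeR, and for THP-1 over MV4-11 1.29, SE 0.102, FDR 1.30e-11 in edgeR). Molm-14 and THP-1 were not ordered beyond their spread (log2 fold change of THP-1 over Molm-14 -0.046, SE 0.0985, FDR 0.691 in edgeR), and the sign of that estimate turned under RLE, upper-quartile and total-count scaling.

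PNP stood at 277, 228 and 235 CPM in MV4-11, 145, 133 and 149 CPM in Molm-14 and 229, 221 and 192 CPM in THP-1 of the knockout series. MV4-11 was above Molm-14 in that series (log2 fold change 0.80, SE 0.0871, FDR 8.50e-09 in edgeR) and in the overexpression series (0.76, SE 0.0614, FDR 1.12e-09 in edgeR). THP-1 was above Molm-14 (0.59, SE 0.0874, FDR 1.11e-06 in edgeR), while its difference from MV4-11 (-0.20, SE 0.0860, FDR 0.0385 in edgeR) came with overlapping libraries. That call was lost under RLE and upper-quartile scaling, without a filter, with genes of at least 100 mean counts, with DESeq2 and with the compared groups alone, and without MV4-11 EV replicate 1 (edgeR FDR 0.265) or THP-1 EV replicate 2 (0.0509) or 3 (0.201). TWF1 was highest in Molm-14, at 37.2, 37.7 and 38.6 CPM against 22.6, 24.1 and 22.8 CPM in MV4-11 and 20.1, 24.1 and 17.9 CPM in THP-1. Its log2 fold changes were -0.71, SE 0.115, FDR 6.18e-06 in edgeR for MV4-11 over Molm-14, -0.87, SE 0.118, FDR 3.04e-07 in edgeR for THP-1 over Molm-14 and -0.16, SE 0.123, FDR 0.256 in edgeR for THP-1 over MV4-11, the last of which did not pass. In the overexpression series TWF1 was also lower in MV4-11 (-0.45, SE 0.0704, FDR 1.18e-05 in edgeR).

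Of the nuclear members, CDK9 was higher in MV4-11 than in Molm-14 in both series (log2 fold changes 0.52, SE 0.0686, FDR 1.37e-06 in edgeR in the overexpression series and 0.69, SE 0.115, FDR 9.49e-06 in edgeR in the knockout series). THP-1 was below MV4-11 in CDK9 (-0.41, SE 0.114, FDR 0.00268 in edgeR), and above Molm-14 (0.28, SE 0.118, FDR 0.0399 in edgeR), where the FDR was 0.207 without THP-1 EV replicate 1 and also missed 5% without any 1 of the 3 Molm-14 EV libraries. HDAC4 was highest in THP-1, at 42.7, 46.8 and 65.4 CPM against 25.6, 35.7 and 23.9 CPM in Molm-14 (log2 fold change 0.84, SE 0.177, FDR 2.74e-04 in edgeR). Its differences between MV4-11 and Molm-14 of the knockout series (0.44, SE 0.179, FDR 0.037 in edgeR) and between THP-1 and MV4-11 (0.40, SE 0.173, FDR 0.0476 in edgeR) were less stable. The first missed 5% without MV4-11 EV replicate 2 or 3 or Molm-14 EV replicate 1 or 3 (FDR up to 0.150). The second missed it without MV4-11 EV replicate 1 or 2 or THP-1 EV replicate 3 (up to 0.288), under total-count scaling and with the compared groups alone. In the overexpression series HDAC4 did not pass (0.015, SE 0.0496, FDR 0.805 in edgeR). PTMA was lower in THP-1 than in MV4-11 (-0.40, SE 0.107, FDR 0.0017 in edgeR) and Molm-14 (-0.34, SE 0.107, FDR 0.00585 in edgeR), where libraries overlapped and the call was lost with genes of at least 100 mean counts (-0.24, FDR 0.0514). Between MV4-11 and Molm-14 it did not pass in either series (-0.11, SE 0.0992, FDR 0.367 in edgeR and 0.059, SE 0.106, FDR 0.654 in edgeR).

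CLTC and TAGLN2 were higher in THP-1 than in both other lines, CLTC by 0.42 and 0.44 and TAGLN2 by 0.28 and 0.39 on the log2 scale over MV4-11 and Molm-14 (edgeR FDR 1.13e-04, 5.11e-05, 0.00396 and 1.59e-04). Between MV4-11 and Molm-14, TAGLN2 was higher in MV4-11 of the overexpression series (0.19, SE 0.0504, FDR 0.00296 in edgeR) and did not pass in the knockout series (0.11, SE 0.0823, FDR 0.265 in edgeR), where it passed under total-count scaling (FDR 0.0270). CLTC did not pass in either (0.025, SE 0.0418, FDR 0.618 in edgeR and 0.025, SE 0.0855, FDR 0.823 in edgeR). LASP1 was lower in MV4-11 than in Molm-14 in both series (-0.49, SE 0.0678, FDR 3.74e-06 in edgeR and -0.25, SE 0.0885, FDR 0.0177 in edgeR), the second of which was lost under upper-quartile scaling (FDR 0.0878), total-count scaling (0.160), with genes of at least 100 mean counts (0.0511), and without Molm-14 EV replicate 1 (0.0655) or 2 (0.0659). LASP1 was also lower in THP-1 than in Molm-14 (-0.36, SE 0.0893, FDR 7.96e-04 in edgeR), and between THP-1 and MV4-11 it did not pass (-0.12, SE 0.0897, FDR 0.26 in edgeR). YWHAZ passed in none of the 3 edgeR baselines of the knockout series (log2 fold changes -0.079 for MV4-11 over Molm-14, 0.15 for THP-1 over MV4-11 and 0.076 for THP-1 over Molm-14). The second passed with DESeq2 (FDR 0.00604), limma-voom (0.0431), RLE scaling (0.0148), upper-quartile scaling (0.0182), genes of at least 100 mean counts (0.00406) and without MV4-11 EV replicate 2 (0.0365). The third passed under upper-quartile scaling (0.0247) and with genes of at least 100 mean counts (0.0150). In the overexpression series YWHAZ was lower in MV4-11 (-0.14, SE 0.0433, FDR 0.00721 in edgeR), with an FDR of 0.0518 without Molm-14 EV replicate 1.

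**Figure D5:**
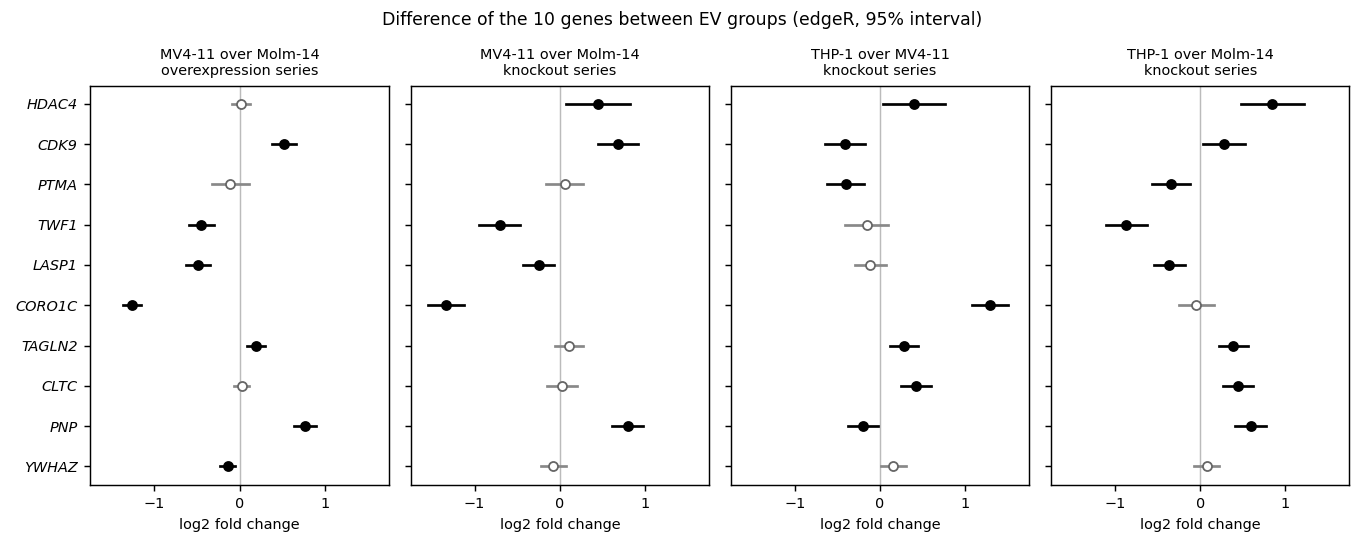
Differences of the 10 genes between EV groups of the cell lines. The x axis is the edgeR log2 fold change, each line is its 95% interval, filled points pass a 5% FDR and open points do not; CORO1C lies at -1.26 and -1.34 for MV4-11 over Molm-14 in the overexpression and the knockout series, and 7, 6, 7 and 8 of the 10 genes pass from the left panel to the right.

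Genes around the 10 were followed as lists. Of 24 further genes reported as miR-1 targets, 13 were tested in the overexpression series. Of these 0 passed in either OE comparison with edgeR, where 0.177% (MV4-11) and 0.0057% (Molm-14) of all tested genes passed. In each line 1 had an unadjusted p under 0.05, as did 5.9% and 4.38% of all genes. Their medians were 0.015 in MV4-11 and 0.014 in Molm-14, beside 0.0069 and 0 over all genes. In the knockout series 16 were tested, and in MV4-11 KO 4 rose and 0 fell, where 5.41% of all genes passed, and 6 of 16 had an unadjusted p under 0.05 (22.3% of all genes). Among those were ANXA2, a membrane-binding annexin (log2 fold change 0.72, SE 0.109, FDR 2.89e-04 in edgeR), IGF1, a growth factor (0.69, SE 0.181, FDR 0.0289 in edgeR), and CALM2, a calmodulin gene (0.38, SE 0.102, FDR 0.0289 in edgeR). The median of the 16 was -0.098 beside 0.015 over all genes. In Molm-14 KO 1 of 16 rose, TMSB4X, a thymosin that binds actin monomers (0.48, SE 0.101, FDR 0.00586 in edgeR), where 2.4% of all genes passed, with 4 of 16 at an unadjusted p under 0.05 (10.7%). In THP-1 KO 0 of 16 passed with edgeR (0.0897% of all genes), with 0 at an unadjusted p under 0.05 (8.01%).

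Paralogs and partners of the 10 genes numbered 33, of which 30 and 31 were tested in the overexpression and the knockout table. In the OE comparisons 0 of 30 passed with edgeR, where 0.177% (MV4-11) and 0.0057% (Molm-14) of all genes passed. In each line 1 had an unadjusted p under 0.05 (5.9% and 4.38% of all genes). YWHAQ, another 14-3-3 gene, rose in MV4-11 KO (0.33, SE 0.0921, FDR 0.0334 in edgeR) and CORO1A, a coronin of blood cells, rose in Molm-14 KO (0.48, SE 0.102, FDR 0.0062 in edgeR). These were 1 of 31 in each line, where 5.41% and 2.4% of all genes passed, and 8 and 2 of 31 had an unadjusted p under 0.05 (22.3% and 10.7%). In THP-1 KO 0 passed with edgeR (0.0897% of all genes), with 1 at an unadjusted p under 0.05 (8.01%).

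The 15 genes of microRNA processing and silencing were all tested. In the OE comparisons 0 of 15 passed with edgeR, where 0.177% (MV4-11) and 0.0057% (Molm-14) of all genes passed. An unadjusted p under 0.05 was found for 1 in MV4-11 and 0 in Molm-14 (5.9% and 4.38% of all genes). The medians were -0.019 and -0.012, beside 0.0069 and 0 over all genes. In MV4-11 KO 14 of 15 had lower estimates (46.2% of all genes), with a median of -0.23 beside 0.015 over all genes. Lower estimates also numbered 11 of 15 in Molm-14 KO and 12 of 15 in THP-1 KO (49.8% and 48.9% of all genes). With OE they numbered 11 of 15 in MV4-11 and 9 of 15 in Molm-14 (46.8% and 49.0%). The 1 that passed in MV4-11 KO, PRKRA, a protein partner of DICER1, rose (0.41, SE 0.102, FDR 0.0196 in edgeR), where 5.41% of all genes passed. There 4 of 15 had an unadjusted p under 0.05 (22.3%). In Molm-14 KO and THP-1 KO 0 passed with edgeR (2.4% and 0.0897% of all genes), with 0 and 2 at an unadjusted p under 0.05 (10.7% and 8.01%). Counting the settings tried, PRKRA and CALM2 passed in 11 of 15, YWHAQ in 10 of 15, IGF1 in 9 of 14, CORO1A in 12 of 15, TMSB4X in Molm-14 in 13 of 15 and ANXA2 in 15 of 15. The highest FDRs of CALM2 (0.171) and YWHAQ (0.192) came without MV4-11 EV replicate 3, those of IGF1 (0.139) and PRKRA (0.121) without MV4-11 KO replicate 1, that of TMSB4X (0.0761) without Molm-14 KO replicate 2, and that of CORO1A (0.0630) with replicate numbers as a block.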

How the data were processed

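RNA of 30 libraries in 10 groups of 3 was sequenced. The deposited values were raw read counts per Ensembl gene, whole numbers, in 1 table for each series. The authors prepared stranded total RNA libraries depleted of ribosomal RNA, trimmed reads (cutadapt 1.16), aligned them to GRCh38 (STAR 2.7.6a) and counted them per gene (featureCounts 1.6.3). The submitters' processing notes also name DESeq2 1.30.1. Whether counting used the strand is not given in the sources used here, so reads of genes that overlap on opposite strands may be mixed. Symbols, positions and 3′ UTRs came from GENCODE release 44, which held 60419 of 60675 and 56948 of 58051 gene IDs of the overexpression and the knockout table. Every column belonged to a library.

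Counts were analysed in R 4.3.3 with edgeR 4.0.16. The filterByExpr step left 17542 and 14490 genes, TMM gave the scaling, and the quasi-likelihood model was fitted with robust moderation, all libraries of a series in 1 model with a mean per group. Tests were two-sided, with Benjamini-Hochberg adjustment over all tested genes and a 5% FDR. Intervals came from the same model at the 95% level. Alternatives were RLE, upper-quartile and total-count scaling, no filter beyond 1 count, a mean of at least 100 counts, DESeq2 1.42.0, limma-voom (limma 3.58.1), the compared groups alone, a replicate block, each library left out in turn, and all annotated 3′ UTRs. Scripts were tested on simulated data.

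All 10 genes were named in every comparison. Of each other list, at most the 3 genes past the FDR with the largest change per comparison of OE or KO with EV were named. The rule for the 10 genes uses no value of these libraries, but earlier results of these data were known when the genes and lists were chosen. Counts of replicates differed by more than sampling noise in all 30 pairs (chi-square per degree of freedom 1.50 to 15.8), so each library counted once. Replicate numbers are shared between groups in the labels. Deviations of same-numbered KO and EV libraries correlated above 0.1 for every number in THP-1 only (0.202, 0.113 and 0.369), so numbers were taken as a pairing there, from the data and not from the labels, and the block changed no call of the 10 genes in that line. Totals of 5339360 to 20939985 counts set the precision, and intervals from counts cover the spread between these libraries only.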

Additional observations from a re-analysis of the deposited data

Results flagged for a closer look

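Of 40 differences of a member's effect between 2 lines, 1 had every library of one line on one side of its EV group and every library of the other line on the opposite side. YWHAZ stood at 277, 293 and 276 CPM in Molm-14 KO and 256, 275 and 267 CPM in EV, and at 267, 271 and 249 CPM in THP-1 KO and 276, 279 and 287 CPM in EV. The log2 difference of the KO effect, Molm-14 minus THP-1, was 0.18 (SE 0.101, unadjusted edgeR p 0.0847, FDR 0.734), and it did not pass. All KO libraries lay above EV for 8.39% of all tested genes in Molm-14 and below EV for 6.79% in THP-1. The share of all genes with both was not counted. YWHAZ was flagged by this separation alone. Groups of 3 libraries are too small for a test of single outlying libraries, and none was run.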

How the results depend on the processing

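In 10 of 13 comparisons the alternatives left the number of the 10 genes past a 5% FDR within 1.5 times its value, and elsewhere it moved as follows. It was 1 in place of 0 for OE in Molm-14 with the compared groups alone, and for KO in Molm-14 under RLE and upper-quartile scaling, without a filter, with DESeq2 and with the compared groups alone. For the KO effect of MV4-11 minus Molm-14 it was 1 in place of 0 under upper-quartile scaling, without a filter, with at least 100 mean counts and with DESeq2, and 0 to 1 with 1 library left out. Of the estimates that turned sign, all were of genes that had not passed. Without MV4-11 OE 1 and EV 3 of the overexpression series, PTMA turned to 0.057. CORO1C in Molm-14 OE turned to -0.0077 under total-count scaling, HDAC4 at baseline in the overexpression series to -0.0038 without a filter, and YWHAZ between MV4-11 and Molm-14 of the knockout series to 0.018 under total-count scaling. CORO1C of THP-1 over Molm-14 turned to 0.015 (RLE), 0.056 (upper quartile), 0.021 (total count), 0.059 (at least 100 mean counts) and 0.015 (DESeq2), where upper-quartile scaling moved the median of all genes by 0.10. With 1 library left out, log2 fold changes ran in MV4-11 OE from -0.14 to 0.096 (PTMA), -0.050 to 0.12 (LASP1), -0.0067 to 0.081 (TAGLN2) and -0.030 to 0.021 (YWHAZ), and in Molm-14 OE from -0.022 to 0.064 (CDK9) and -0.0037 to 0.048 (CORO1C). In MV4-11 KO they ran from -0.15 to 0.053 (PTMA) and -0.0092 to 0.093 (YWHAZ), in Molm-14 KO from -0.28 to 0.047 (HDAC4), -0.14 to 0.018 (TWF1) and -0.015 to 0.067 (PNP), and in THP-1 KO from -0.0021 to 0.15 (PTMA) and -0.038 to 0.12 (LASP1). Between MV4-11 and Molm-14 EV they ran from -0.0028 to 0.029 (HDAC4, overexpression series), -0.036 to 0.15 (PTMA, knockout series) and -0.041 to 0.10 (CLTC, knockout series). Single-gene values kept their direction and side of the threshold in 948 cases under other settings and 581 with 1 library left out, lost a call in 23 and 51, gained one in 18 and 3, and turned sign in 9 and 25. Counts over all genes moved more. In MV4-11 OE 31 genes passed (9 with the compared groups alone, 123 without a filter, 12 without OE 2, 47 without OE 1), and upper-quartile scaling changed the split from 9 higher and 22 lower to 6 and 26. In Molm-14 OE 1 passed (0 with at least 100 mean counts, 195 with the compared groups alone). In MV4-11 KO 784 passed (356 with the compared groups alone, 133 without EV 3, 1400 without EV 1), in Molm-14 KO 348 (183 without KO 2) and in THP-1 KO 13 (4 with the compared groups alone, 30 without a filter, 3 without KO 2). Differences of effect gave 8 (1 to 33), 215 (105 to 388), 28 (18 to 80) and 111 (78 to 159) genes, and baselines of 8940, 9787 and 10085 genes fell to 5833, 6046 and 6247 with at least 100 mean counts, where fewer genes were tested. The cause of the other changes was not tested.

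With the replicate number as a block, 0 of the 10 genes passed in the 5 comparisons of OE or KO with EV and in the 4 differences, as without it, and 7, 6, 7 and 8 passed in the baselines. In lines other than THP-1 the samples shared only a number. The block gave 15 genes in MV4-11 OE, 2 in Molm-14 OE, 1474 in MV4-11 KO and 16 in THP-1 KO, and 2, 388, 52 and 111 in the differences. THP-1 was the only line where every OE or KO library correlated best with the EV library of its own number. The knockout series had lower depth and wider intervals, and no library measured mature miR-1 or protein.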

Other observations

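Of the 19 tested interferon-stimulated genes, 0 passed with edgeR in MV4-11 OE (0.177% of all genes), with 0 at an unadjusted p under 0.05 (5.9%). Even so, 19 of 19 were higher, where 46.8% of all genes were lower. Their median log2 fold change was 1.68 beside 0.0069 over all genes. OE replicate 1 alone stood high, at a mean log2 CPM of 5.07, while the other OE libraries (1.59 and 1.47) were near EV replicates 1 and 2 (1.51 and 1.42) and below EV replicate 3 (3.15). HERC5 fell in Molm-14 KO (-0.62, SE 0.119, FDR 0.00228 in edgeR), 1 of 19 where 2.4% of all genes passed. Of the 10 myeloid markers, PTPRC rose and SPI1 fell in MV4-11 KO (0.27, SE 0.0780, FDR 0.0422 in edgeR and -0.46, SE 0.137, FDR 0.0486 in edgeR), 2 of 10 where 5.41% of all genes passed. Of the 10 lymphoid and epithelial markers 2 were tested in the knockout series. KRT18 rose in MV4-11 KO (0.98, SE 0.258, FDR 0.0278 in edgeR), 1 of 2 where 5.41% of all genes passed. Calls held in 15 of 15 settings for HERC5, in 7 of 15 for PTPRC, in 6 of 15 for SPI1 and in 9 of 14 for KRT18, and the highest FDRs were 0.251 for PTPRC without MV4-11 KO replicate 1 and 0.273 for SPI1 without MV4-11 EV replicate 3, the library without which KRT18 also lost its call.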
